A study of Mus musculus with 2 samples.

Results

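The 10 genes described here detect or act on misplaced nucleic acids, or relay that signal, and were measured in cells of injured muscle of mice. They were taken by symbol from the 55487 genes listed: the cytosolic RNA helicases Ddx58, Ifih1 and Dhx58 with their adaptor Mavs, the DNA sensor Cgas with its adaptor Sting1, the DNA exonuclease Trex1, the sensor Zbp1, and the endosomal receptors Tlr3 and Tlr7. All 10 members were in the gene table, and the rule names symbols only. Single-cell RNA-seq (10x Genomics 3′ v2) was made from 1 wild-type (WT) library and 1 library labelled Setdb1-cKO (KO), a conditional knockout of the histone H3 lysine 9 methyltransferase Setdb1. Both came from the injured tibialis anterior of mice aged 8 to 12 weeks, digested and sorted on Hoechst and propidium iodide. The sources used here do not give the Cre driver, the cells in which it acts, the floxed exons, the kind of injury, the time since injury, or how many animals of which sex made up a library. The series title asks about Setdb1 in muscle stem cells during regeneration. With 1 library per group there is no replicate and no test across animals, so each difference is one between these 2 libraries. Brackets hold 95% intervals, which reflect counting error alone.

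Cells recognise viral or misplaced self nucleic acids in the cytosol and in endosomes. Ddx58 (RIG-I) and Ifih1 (MDA5) bind double-stranded RNA and signal through Mavs on mitochondria. Cgas, when bound to double-stranded DNA, makes a cyclic dinucleotide that activates Sting1. Both arms lead through the kinase Tbk1 to Irf3 and Irf7 and to type I interferon, and several of the sensors are themselves switched on by interferon. Setdb1 is known to silence endogenous retroelements, and transcripts of such elements can be ligands of these receptors.

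There were 6314 WT and 5730 KO cells, with medians of 12118 and 13006.5 unique molecular identifiers (UMIs, which count captured RNA molecules) and 6 barcodes common to both libraries. Levels are given as counts-per-million (CPM), the UMIs of a gene scaled to the total UMIs of all cells of a class in 1 library. Of the classes, named "-like" from marker genes, 8 had at least 50 cells in each library. These were mononuclear phagocyte-like (3394 WT and 3399 KO cells), fibro-adipogenic or fibroblast-like (771 and 785), endothelial-like (654 and 575), myogenic-like (682 and 373), dendritic-like (399 and 250), tenocyte-like (86 and 112), mural-like (68 and 102) and T or NK lymphocyte-like (58 and 50). Setdb1 itself was lower in KO myogenic-like cells, at 18.2 CPM in WT and 8.82 CPM in KO cells (245 and 79 UMIs, ratio 0.48 [0.37 to 0.63]). In phagocyte-like, fibro-adipogenic and endothelial-like cells its ratio was 1.27, 1.24 and 1.04. These 3′ tags may lie outside the deleted part, which the sources used here do not give. A KO/WT difference was called when it passed 1.5-fold on CPM + 5 and the gene had at least 20 UMIs over both sums.

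The promoters of Ddx58 and Ifih1 each held 1 match to a motif bound by interferon-activated factors, and these sites are shown because several sensors are known to be interferon-induced. The letters GAAA, any 2 bases, then GAAA, the core of the interferon-stimulated response element, were searched on both strands of RefSeq promoter windows of 300 bases (250 before to 50 after a gene's start, GRCm38.p6). Windows were held for 6 members, and Dhx58, Zbp1, Tlr7 and Sting1 had none in the table used. The sites are printed 5′ to 3′ on the gene's strand, with the motif in capitals.
Ddx58 (chr4:40239804-40239833, minus strand): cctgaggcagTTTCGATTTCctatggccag
Ifih1 (chr2:62646206-62646233, minus strand): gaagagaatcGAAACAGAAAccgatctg
The Ddx58 match read on the opposite strand and began 2 bases after the start base, and the Ifih1 match read on the gene's strand and began 32 bases after it. The windows of Mavs, Cgas, Trex1 and Tlr3 held no match. Of 32851 promoter windows in the table, 3.44% held the motif. A match describes letters only and shows no binding.

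Ddx58, the helicase that recognises short RNA with a 5′ triphosphate, was lower in KO than in WT myogenic-like cells. The gene lies on chromosome 4 from 40203773 to 40239828 (GRCm38, minus strand). Its myogenic-like level was 24.7 CPM [22.1 to 27.5] in WT and 13.3 CPM [11.01 to 15.9] in KO cells (332 and 119 UMIs), a KO/WT ratio of 0.54 [0.43 to 0.67]. The ratio was 0.76 [0.69 to 0.84] in fibro-adipogenic cells, from 44.5 to 33.7 CPM, and 0.87 [0.83 to 0.92] in phagocyte-like cells, from 61.8 to 54.1 CPM. Endothelial-like cells (72.6 and 65.2 CPM) and dendritic-like cells (25.7 and 23.1 CPM) had ratios of 0.90 whose intervals held 1. Ddx58 was highest in WT endothelial-like cells, followed by phagocyte-like cells, and the interval of the first lay above that of the second. From there down to myogenic-like cells, the lowest class, each WT interval overlapped its neighbour in the order. In the KO library the myogenic-like interval lay below that of all 7 other classes.

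Ifih1, the helicase that recognises long double-stranded RNA, was lower in KO fibro-adipogenic, endothelial-like and myogenic-like cells and higher in dendritic-like cells. The gene lies on chromosome 2 from 62595798 to 62646255 (minus strand). Fibro-adipogenic cells held 28.7 CPM [26.3 to 31.3] in WT and 15.8 CPM [14.3 to 17.5] in KO cells (521 and 377 UMIs, ratio 0.55 [0.48 to 0.63]). Myogenic-like cells held 16.7 and 10.5 CPM (225 and 94 UMIs, ratio 0.63 [0.49 to 0.80]), and endothelial-like cells 53.9 and 39.4 CPM (0.73 [0.63 to 0.85]). Dendritic-like cells held 39.3 and 52.3 CPM (156 and 145 UMIs), a ratio of 1.33 [1.05 to 1.68] on the other side of 1. The 14 phagocyte markers summed to 2821 and 3567 CPM in these dendritic-like cells, with 12 of 14 higher in the KO library and none at 0, and their part in the ratio was not tested. In phagocyte-like cells the levels were 52.8 and 53.5 CPM, and the interval of the ratio held 1. The KO myogenic-like UMIs were uneven between cells: 10 of the 373 cells held 50% of them and 1 cell held 15, against 20.4% in 10 of the 682 WT cells.

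Dhx58 (LGP2), a helicase of the same family without the signalling domain, was lower in the KO library in all 5 of the larger classes (phagocyte-like, fibro-adipogenic, endothelial-like, myogenic-like and dendritic-like). The gene lies on chromosome 11 from 100694884 to 100704271 (minus strand). The ratio was 0.44 [0.36 to 0.54] in fibro-adipogenic cells (16.3 and 7.21 CPM), 0.45 [0.29 to 0.67] in myogenic-like cells (7.96 and 3.57 CPM, 107 and 32 UMIs) and 0.57 [0.43 to 0.76] in dendritic-like cells (42.8 and 24.5 CPM). Endothelial-like cells (25.8 and 17.2 CPM) and phagocyte-like cells (46.1 and 31.7 CPM) had ratios of 0.67 and 0.69, and neither passed the 1.5-fold rule. In both libraries the phagocyte-like level was the highest and its interval overlapped that of dendritic-like cells. Mural-like cells went the other way on 5 and 23 UMIs (ratio 2.36 [0.88 to 7.93]), an interval that held 1. Dhx58 shares 141 exonic bases with the antisense gene Dhx58os. The sources used here do not give the strand setting of the counting, so how reads of that stretch were counted is not known.

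Mavs, the mitochondrial adaptor of these helicases, passed the 1.5-fold rule in none of the 6 classes in which it had 20 UMIs. It lies on chromosome 2 from 131234063 to 131248025 (plus strand). Its levels were 11.5 and 12.6 CPM in phagocyte-like cells, where its interval lay above that of each class other than mural-like and T or NK lymphocyte-like cells in the WT library. Myogenic-like cells held 4.84 CPM [3.73 to 6.17] and 4.58 CPM [3.29 to 6.21] (65 and 41 UMIs). The myogenic-like ratio of 0.95 has an interval of 0.62 to 1.42, so differences within that range were not detectable at this depth.

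**Figure D1:**
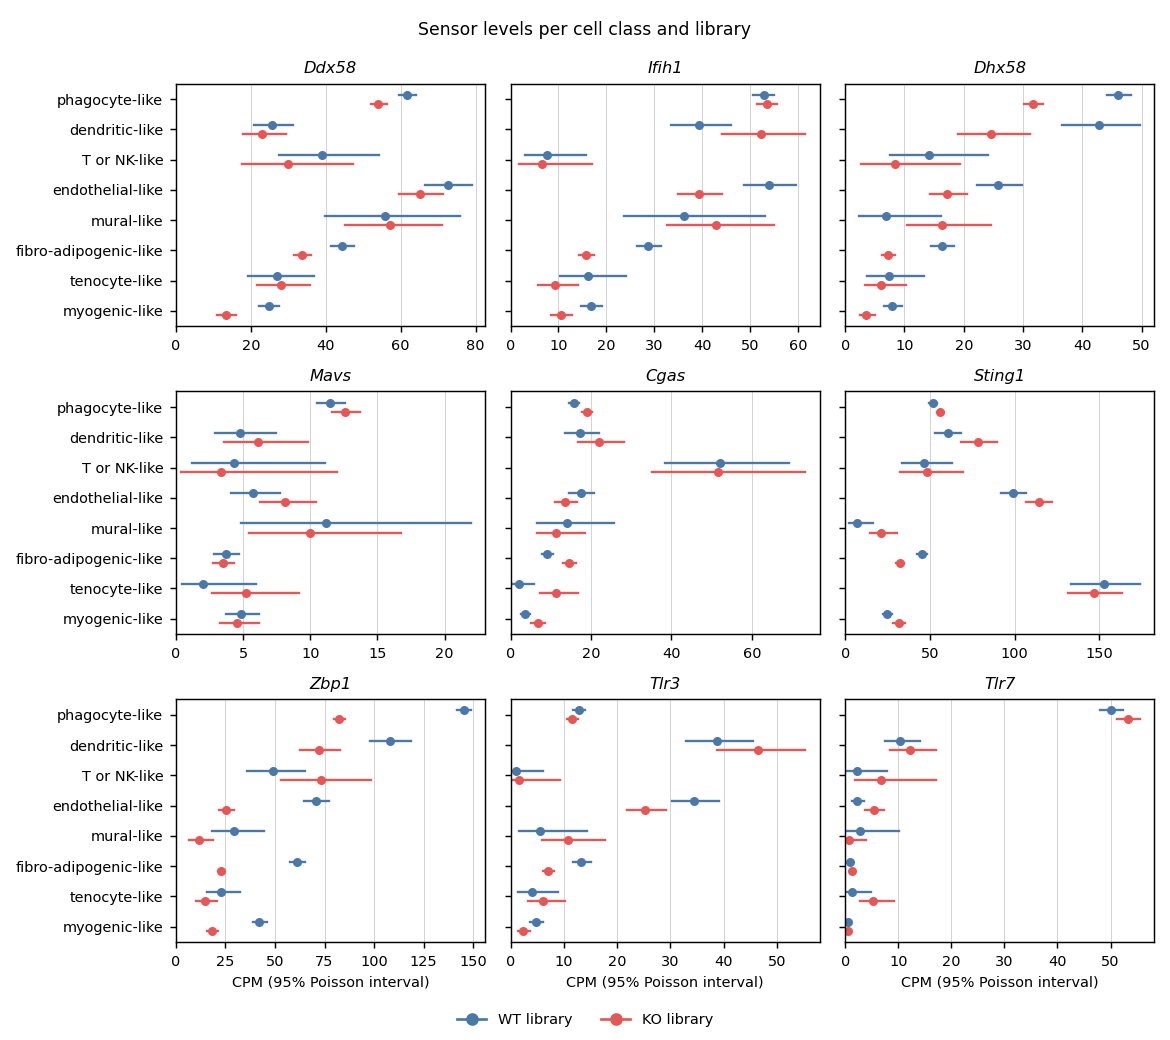
Level of 9 sensors in 8 cell classes; Trex1 is left out because it had 1 UMI. The x axis is CPM from 0, on its own scale in each panel, points are the WT (blue) and KO (red) library, and bars are 95% Poisson intervals of the counts; Zbp1 stands at 145 and 82.6 CPM in phagocyte-like cells, while Sting1 is highest in tenocyte-like cells at 153 and 147 CPM.

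Cgas, which senses cytosolic DNA, was higher in KO than in WT myogenic-like and fibro-adipogenic cells. The gene lies on chromosome 9 from 78430526 to 78443237 (minus strand). Myogenic-like cells held 3.57 CPM [2.63 to 4.74] in WT and 6.70 CPM [5.11 to 8.63] in KO cells (48 and 60 UMIs, ratio 1.88 [1.26 to 2.80]). Fibro-adipogenic cells held 9.10 and 14.6 CPM (165 and 349 UMIs, ratio 1.61 [1.33 to 1.95]), and phagocyte-like cells 15.7 and 18.9 CPM (1.202 [1.09 to 1.33]). None of these passed the 1.5-fold rule on CPM + 5, which damps low levels. Tenocyte-like cells did pass it, on 3 and 26 UMIs (ratio 5.61 [1.72 to 29.0]). Endothelial-like cells lay on the other side, at 17.5 and 13.6 CPM, with an interval that held 1. Within the fibro-adipogenic class, a cluster led by the cell-cycle genes Hmmr and Prc1 held 61 WT and 192 KO cells. Its part in the fibro-adipogenic ratios, that of Cgas among them, was not tested. In both libraries Cgas was highest in T or NK lymphocyte-like cells, at 52.1 CPM [38.4 to 69.1] and 51.6 CPM [35.06 to 73.2], above the interval of each other class. Cgas shares 201 exonic bases with the pseudogene Gm8093 on the opposite strand.

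Sting1, the adaptor that Cgas activates, was most abundant in tenocyte-like cells, where it did not pass the rule. It stood there at 153 CPM [133 to 174] in WT and 147 CPM [132 to 164] in KO cells (226 and 336 UMIs). Endothelial-like cells came next in both libraries, at 98.9 and 114 CPM (ratio 1.16 [1.04 to 1.28]). Myogenic-like cells held 24.6 CPM [22.05 to 27.4] and 31.6 CPM [28.04 to 35.5] (331 and 283 UMIs, 1.28 [1.09 to 1.51]), and dendritic-like cells, with the same higher phagocyte markers, 60.5 and 78.3 CPM (1.29 [1.07 to 1.56]). Fibro-adipogenic cells were the exception among the larger classes, at 45.3 and 32.2 CPM (822 and 768 UMIs, 0.71 [0.64 to 0.78]). In mural-like cells, the lowest class in both libraries, 5 and 30 UMIs gave 6.96 and 21.4 CPM (3.07 [1.18 to 10.1]). The 12 fibroblast markers summed to 1534 and 3397 CPM in mural-like cells, with 10 of 12 higher in the KO library and Pdgfra and Pi16 at 0 in the WT, and their part in the ratio was not tested.

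Trex1, the exonuclease that removes cytosolic DNA and restrains Cgas, had 0 UMIs in all WT cells and 1 UMI in all KO cells. The gene lies on chromosome 9 from 109057933 to 109059734 (minus strand), and all 1147 of its exonic bases lie within exons of Atrip on the same strand. Atrip, a partner of the checkpoint kinase Atr, had 760 and 764 UMIs in all cells. Reads from these bases cannot be told apart between the genes, so the 0 says nothing about whether Trex1 was expressed.

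Zbp1, which binds left-handed double-stranded nucleic acid and can start necroptosis, was lower in the KO library in all 5 of the larger classes and had the lowest ratio of the members with 20 UMIs in each of them but dendritic-like cells. The gene lies on chromosome 2 from 173206612 to 173218923 (minus strand). Endothelial-like cells held 70.7 CPM [64.7 to 77.1] in WT and 25.4 CPM [21.9 to 29.2] in KO cells (506 and 190 UMIs, ratio 0.36 [0.30 to 0.42]). Fibro-adipogenic cells held 61.2 and 22.9 CPM (0.37 [0.34 to 0.41]), and myogenic-like cells 42.1 CPM [38.7 to 45.7] and 18.2 CPM [15.5 to 21.2] (566 and 163 UMIs, 0.43 [0.36 to 0.52]). The ratio was nearer to 1 in phagocyte-like cells, at 145 and 82.6 CPM (0.57 [0.55 to 0.59]), and in dendritic-like cells, at 108 and 72.1 CPM (0.67 [0.56 to 0.79]). T or NK lymphocyte-like cells held 48.9 and 73.2 CPM on 45 and 44 UMIs (1.498 [0.97 to 2.32]), an interval that held 1. Markers of other cell types were higher in the KO cells of this class. The 12 fibroblast markers summed to 91.2 and 2180 CPM (11 of 12 higher, Pi16 at 0 in both libraries), the 10 endothelial markers to 40.2 and 376 CPM (10 of 10 higher, Vwf and Esam at 0 in the WT) and the 14 phagocyte markers to 2241 and 3332 CPM (12 of 14 higher, none at 0). Their part in the Zbp1 levels was not tested. Phagocyte-like cells were the highest class in both libraries. They stood above dendritic-like cells in the WT, while in the KO library their interval overlapped those of T or NK lymphocyte-like and dendritic-like cells. In mural-like cells Zbp1 was lower on 21 and 16 UMIs (0.39 [0.19 to 0.78]), but a minimum of 2000 UMIs per cell in both libraries gave 23.3 and 24.1 CPM (35 and 58 UMIs).

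With every cell thinned to 5000 UMIs, a Zbp1 UMI was found in 16.6% [13.9 to 19.6] of WT and 7.24% [4.82 to 10.4] of KO myogenic-like cells. The unthinned shares were 35.8% and 23.1%. Tenocyte-like cells had the smallest thinned shares of Zbp1 among the 8 classes, 3.49% and 3.57%. Median depths were 17391.5 and 21313 UMIs in myogenic-like and 15672.5 and 18994.5 in tenocyte-like cells. Free RNA of the same library could have given at most 1.07 and 1.03 CPM of Zbp1 in myogenic-like cells, and at most 0.76 and 0.93 CPM of Ddx58.

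Tlr3, the endosomal receptor of double-stranded RNA, was highest in dendritic-like and endothelial-like cells in both libraries. It lies on chromosome 8 from 45395665 to 45411080 (minus strand). Dendritic-like cells held 38.8 CPM [32.9 to 45.4] and 46.5 CPM [38.8 to 55.3], and endothelial-like cells 34.5 CPM [30.3 to 39.1] and 25.2 CPM [21.8 to 29.1] (247 and 189 UMIs, ratio 0.73 [0.60 to 0.89]). Both lay above every other class, and they overlapped each other in the WT but not in the KO library. Fibro-adipogenic cells held 13.3 and 7.05 CPM (241 and 168 UMIs, 0.53 [0.43 to 0.65]), and myogenic-like cells 4.76 and 2.35 CPM on 64 and 21 UMIs (0.49 [0.29 to 0.82]). Tlr3 shares 381 exonic bases with the antisense gene Gm45542, which had 4 UMIs in all.

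Tlr7, the endosomal receptor of single-stranded RNA, was highest in phagocyte-like cells. It lies on chromosome X from 167304929 to 167330558 (minus strand). Phagocyte-like cells held 50.2 CPM [48.1 to 52.3] in WT and 53.3 CPM [51.2 to 55.5] in KO cells (2185 and 2426 UMIs, ratio 1.06 [1.00 to 1.13]). The log2 difference there turned from above 0 to -0.01 when median-of-ratios scaling was used. Dendritic-like cells came next at 10.3 and 12.3 CPM. Myogenic-like cells had 8 and 4 UMIs, and the KO level of 0.45 CPM lay under the 0.63 CPM that free RNA could give. Endothelial-like cells held 16 and 40 UMIs (2.23 and 5.34 CPM, ratio 2.39 [1.31 to 4.57]). The 14 phagocyte markers summed to 1772 CPM in WT and 3176 CPM in KO endothelial-like cells, with 14 of 14 higher in the KO library and none at 0, and their part in the Tlr7 difference was not tested.

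Counted over members, 4 were called lower in the KO library in fibro-adipogenic cells (Ifih1, Dhx58, Zbp1 and Tlr3) and 3 in myogenic-like cells (Ddx58, Dhx58 and Zbp1). The background over all genes called lower was 2.31% in fibro-adipogenic cells and 3.00% in myogenic-like cells, and that called higher was 2.42% and 4.19%. When cells of either library needed 2000 UMIs, the fibro-adipogenic cells numbered 794 WT and 2361 KO, with median depths of 20946.5 and 4058 UMIs. Ifih1 (28.5 and 19.04 CPM) and Tlr3 (13.5 and 7.88 CPM) were then no longer called there, while Dhx58 and Zbp1 were. With 20 CPM added in place of 5, Zbp1 was the only member called lower in either class. Shares of all genes called under these alternative settings are not given here. Zbp1 was the only member called lower in phagocyte-like cells (background 0.545%), in endothelial-like cells (0.936%) and in mural-like cells (5.39%), and Dhx58 the only one in dendritic-like cells (1.75%). No member was called higher in the 5 larger classes (background 0.616% in phagocyte-like, 2.52% in endothelial-like and 4.24% in dendritic-like cells). Sting1 and Dhx58 were called higher in mural-like cells (background 12.5%) and Cgas in tenocyte-like cells (10.4%, with 3.59% called lower), where the median of all genes was itself shifted by 0.14 on the log2 scale. Sting1 was no longer called in mural-like cells with a minimum of 2000 UMIs. In T or NK lymphocyte-like cells only Ddx58, Cgas, Sting1 and Zbp1 had the 20 UMIs needed for a call. None of these was called in either direction (8.67% of genes lower and 15.2% higher). With a minimum of 2000 UMIs, however, Zbp1 was called higher there, at 53.3 and 92.6 CPM (44 and 74 UMIs, ratio 1.74 [1.18 to 2.59]). The class then held 64 WT and 126 KO cells of unlike depth, with medians of 10841.5 and 4382.5 UMIs.

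**Figure D2:**
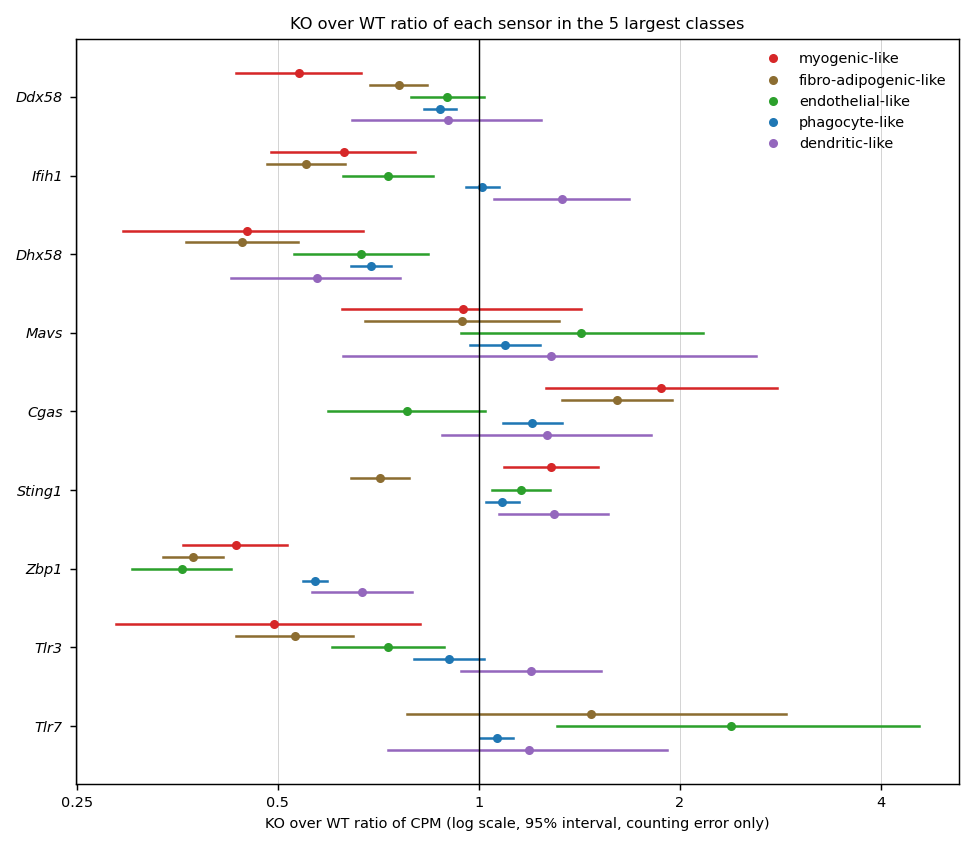
KO/WT ratio of CPM (log2-spaced axis) for 9 sensors in the 5 larger classes. Points are ratios and bars their 95% intervals, which cover counting error only; Tlr7 in myogenic-like cells is left out for its 12 UMIs. Zbp1 and Dhx58 lie left of 1 in all 5 classes, while Sting1 lies left of 1 in fibro-adipogenic cells (0.71) and right of it in the other 4.

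The myogenic-like ratio was further from 1 than that of phagocyte-like cells for Ddx58, Ifih1, Dhx58, Zbp1 and Tlr3, which were below 1. The same held for Cgas and Sting1, which were above 1. The quotient of both ratios was 0.61 [0.50 to 0.76] for Ddx58, 0.62 [0.48 to 0.79] for Ifih1 and 0.76 [0.64 to 0.91] for Zbp1, and for Cgas it was 1.56 [1.05 to 2.31]. Against fibro-adipogenic cells the quotient was 0.71 [0.56 to 0.89] for Ddx58 and 1.81 [1.498 to 2.18] for Sting1, and its interval held 1 for the 6 other members with a value. Against endothelial-like cells it was 0.60 [0.47 to 0.76] for Ddx58 and 2.41 [1.52 to 3.81] for Cgas, and held 1 for the 6 others. These quotients share the myogenic-like sums and compare classes within the same 2 libraries. They were not weighted for the shares of clusters, and such weighting moved some of the ratios, as given below.

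Markers of phagocytes were higher in KO myogenic-like and fibro-adipogenic cells, and their part in the ratios of these classes was examined for the first. The 14 markers summed to 472 CPM in WT and 879 CPM in KO cells, 13 of 14 were higher in the KO, and none was at 0. A myogenic subcluster led by Fabp4, Cd74 and C1qa (14 WT and 29 KO cells) held 4185 and 6761 CPM of them. Without it the ratio was 0.53 [0.42 to 0.66] for Ddx58, 0.44 [0.36 to 0.52] for Zbp1, 0.35 [0.21 to 0.55] for Dhx58 and 1.71 [1.14 to 2.59] for Cgas, and these ratios lay on the same side of 1 as with it. In fibro-adipogenic cells the marker sum was 740 and 1039 CPM, with 11 of 14 higher in the KO library and none at 0, and its part in the ratios there was not tested. A minimum of 2000 UMIs in both libraries, in place of 5146 and 6297, admitted more KO cells (694 WT and 521 KO myogenic-like cells). It left 1 member called lower, Zbp1, at 42.1 and 21.7 CPM (ratio 0.51 [0.44 to 0.60]). The share of all genes called at this minimum is not given here. Ddx58 then stood at 24.6 and 14.8 CPM (0.60 [0.49 to 0.73]), just short of the 1.5-fold rule on CPM + 5.

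Among myogenic states, Dhx58 and Zbp1 were called lower in both stem-like and cycling cells, Ifih1 in stem-like cells and Ddx58 and Tlr3 in cycling cells. States were clusters of myogenic-like cells, built with the members and pathway lists left out. Non-cycling muscle stem-like cells numbered 498 and 139, cycling myoblast-like cells 125 and 141, and differentiating myocyte-like cells 45 and 64. Within the stem-like state the libraries were filled by different clusters: cluster 0, led by Mfap4, Dnajb1 and Chodl, held 233 WT and 16 KO cells, and cluster 1, led by Srxn1, Myc and Hk2, held 132 and 71.

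Cycling myoblast-like cells had 4 members called lower, Ddx58, Dhx58, Zbp1 and Tlr3 (background 4.27% lower), and none called higher (3.60%). Zbp1 stood there at 43.5 and 15.8 CPM (147 and 62 UMIs, ratio 0.36 [0.27 to 0.49]) and Ddx58 at 30.5 and 12.5 CPM (103 and 49 UMIs, 0.41 [0.29 to 0.58]). Dhx58 held 35 and 11 UMIs (0.27 [0.12 to 0.55]) and Tlr3 held 20 and 7 (0.30 [0.11 to 0.74]). Ifih1 held 67 and 59 UMIs, a ratio of 0.76 whose interval of 0.53 to 1.09 held 1, and 15 of its KO UMIs came from 1 cell. Sting1 was higher, at 18.9 and 29.8 CPM (64 and 117 UMIs, 1.57 [1.15 to 2.17]), but did not pass the rule on CPM + 5.

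In stem-like cells 3 members were called lower, Ifih1, Dhx58 and Zbp1 (background 3.19% lower), and none higher (4.47%). Zbp1 stood at 46.4 and 28.4 CPM (396 and 70 UMIs, ratio 0.61 [0.47 to 0.79]), nearer to 1 than in cycling cells, a difference that was not tested. In the stem-like state 10 of the 139 KO cells held 55.7% of the Zbp1 UMIs, against 21.2% in 10 of the 498 WT cells. Among cycling cells 10 cells held 55.8% of them in WT and 59.7% in KO. Ifih1 stood at 17.8 and 8.12 CPM (152 and 20 UMIs, 0.46 [0.27 to 0.73]) and Dhx58 held 68 and 7 UMIs (0.36 [0.14 to 0.77]). Ddx58 held 208 and 42 UMIs (0.70 [0.49 to 0.98]) and was not called. Sting1 was again higher, at 26.3 and 39.8 CPM (224 and 98 UMIs, 1.51 [1.18 to 1.93]). The phagocyte marker sum of these stem-like cells was 387 CPM in both libraries. In cluster 1 alone, the larger KO cluster, Zbp1 stood at 59.8 and 23.1 CPM (160 and 35 UMIs), Ddx58 at 35.5 and 16.5 CPM (95 and 25 UMIs) and Sting1 at 34.7 and 49.5 CPM (93 and 75 UMIs).

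Cgas was higher in cycling myoblast-like than in stem-like cells in both libraries, with intervals that did not overlap. It stood there at 7.40 and 11.5 CPM (25 and 45 UMIs, ratio 1.55 [0.93 to 2.64]), against 2.35 and 1.62 CPM in stem-like cells (20 and 4 UMIs). Cycling cells made up 125 of 682 WT and 141 of 373 KO myogenic-like cells. With KO clusters weighted to the WT shares, the myogenic-like Cgas ratio was 1.25 in place of 1.88, while the ratios of Ddx58 (0.51), Ifih1 (0.66), Dhx58 (0.42), Sting1 (1.22) and Zbp1 (0.50) lay on the same side of 1 as before.

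Differentiating myocyte-like cells held few UMIs of the sensors, and only Ddx58, Sting1 and Zbp1 had the 20 UMIs needed for a call. None of these was called in either direction (background 6.57% lower and 8.17% higher), and the other members could not be called. Zbp1 stood at 6.05 and 10.7 CPM (7 and 20 UMIs, ratio 1.77 [0.72 to 4.95]) and Ddx58 at 8.64 and 9.10 CPM (10 and 17 UMIs). Sting1, the member with the most UMIs in this state, stood at 19.9 and 20.3 CPM (23 and 38 UMIs, 1.02 [0.59 to 1.80]). In the WT library the Zbp1 interval of this state lay below those of stem-like and cycling cells.

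**Figure D3:**
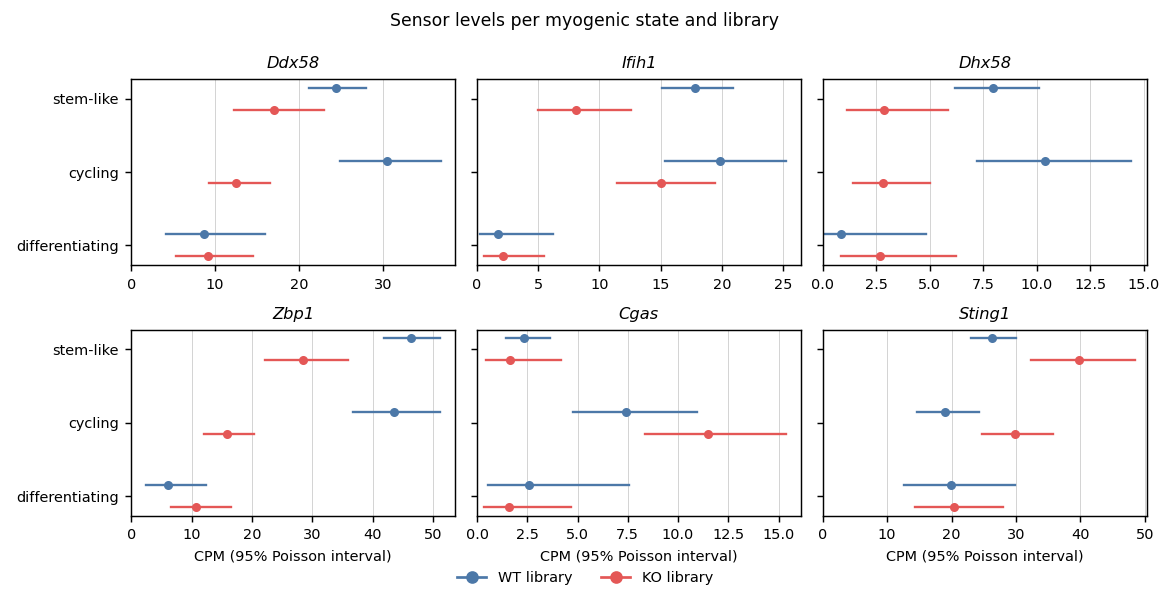
Level of 6 sensors in 3 myogenic states. The x axis is CPM from 0, on its own scale in each panel, points are the WT (blue) and KO (red) library, and bars are 95% Poisson intervals; Zbp1 and Ddx58 separate in cycling cells (43.5 and 15.8 CPM, 30.5 and 12.5 CPM) and overlap in differentiating cells.

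Members were also counted per cell at 5000 UMIs. A UMI of any member was found in 41.1% [37.3 to 44.9] of WT and 33.0% [28.2 to 38.0] of KO myogenic-like cells. These intervals overlapped. That share was 79.8% and 74.5% in phagocyte-like, 60.2% and 51.3% in fibro-adipogenic, 78.4% and 74.3% in endothelial-like and 67.4% and 70.0% in dendritic-like cells. Ddx58, Ifih1, Dhx58 and Zbp1 each had a lower CPM in KO myogenic-like cells, so a lower share of these 4 is no separate finding. Any of these 4 genes was found in 30.1% [26.6 to 33.7] of WT and 14.7% [11.3 to 18.8] of KO myogenic-like cells. Among cycling myoblast-like cells the shares were 34.4% and 13.5%, among stem-like cells 30.5% and 15.1%, and among differentiating cells 11.1% and 10.9%. In fibro-adipogenic cells they were 45.0% and 31.1%, in endothelial-like cells 56.4% and 43.0%, in phagocyte-like cells 63.6% and 53.5%, and in dendritic-like cells 45.4% and 43.6%, where the intervals overlapped. At least 2 of these 4 genes were seen in 29.7% and 20.5% of phagocyte-like cells but in 6.60% and 3.49% of myogenic-like cells.

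Phagocyte-like cells were the largest class, and clusters within them differed more in sensor level than the libraries did for Ddx58 and Ifih1. Cluster 2, led by the interferon genes Ifit3 and Mx1 with the monocyte gene Plac8 (836 WT and 443 KO cells), held the highest level of Zbp1 (296 and 211 CPM), Ddx58 (111 and 108 CPM), Ifih1 (93.9 and 111 CPM) and Dhx58 (80.0 and 66.1 CPM). Cluster 4, led by Mmp12, Atp6v0d2 and Ctsk (430 and 348 cells), held the lowest Zbp1 (72.3 and 41.7 CPM) and Ddx58 (27.6 and 26.1 CPM). Ifit3 and Mx1 were left out of the clustering, as were all members. Other leading genes of cluster 2, Gm6545, Ly6a and Slfn1, were not left out. The clusters may thus still rest in part on genes that vary with those left out.

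Zbp1 was lower in the KO library in each of the 6 phagocyte clusters with cells of both libraries. The ratio was 0.41 [0.36 to 0.46] in cluster 3, led by Cxcl3, Cxcl2 and Clec4e (126 and 51.3 CPM), 0.44 [0.36 to 0.54] in the cycling cluster 5 (161 and 71.5 CPM) and 0.58 [0.49 to 0.67] in cluster 4. These 3 passed the 1.5-fold rule (background 1.09%, 3.41% and 0.961% lower). In clusters 0, 1 and 2 the ratios were 0.72, 0.71 and 0.71 and did not pass it (0.607%, 0.408% and 0.904%). No member was called higher in any of the 6 (background 0.894%, 0.702%, 1.76%, 1.37%, 1.20% and 8.76% in clusters 0 to 5). Ddx58 and Dhx58 were called lower in cluster 5 as well, at 78.9 and 50.8 CPM and at 59.2 and 23.8 CPM. With KO clusters weighted to the WT shares, the ratio of the whole class was 0.66 in place of 0.57 for Zbp1, which then did not pass the rule, and 0.94 in place of 0.87 for Ddx58. Tlr7, at 27.5 to 63.8 CPM over these clusters and libraries, had a ratio between 0.97 and 1.09 in all 6, and each of those intervals held 1.

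**Figure D4:**
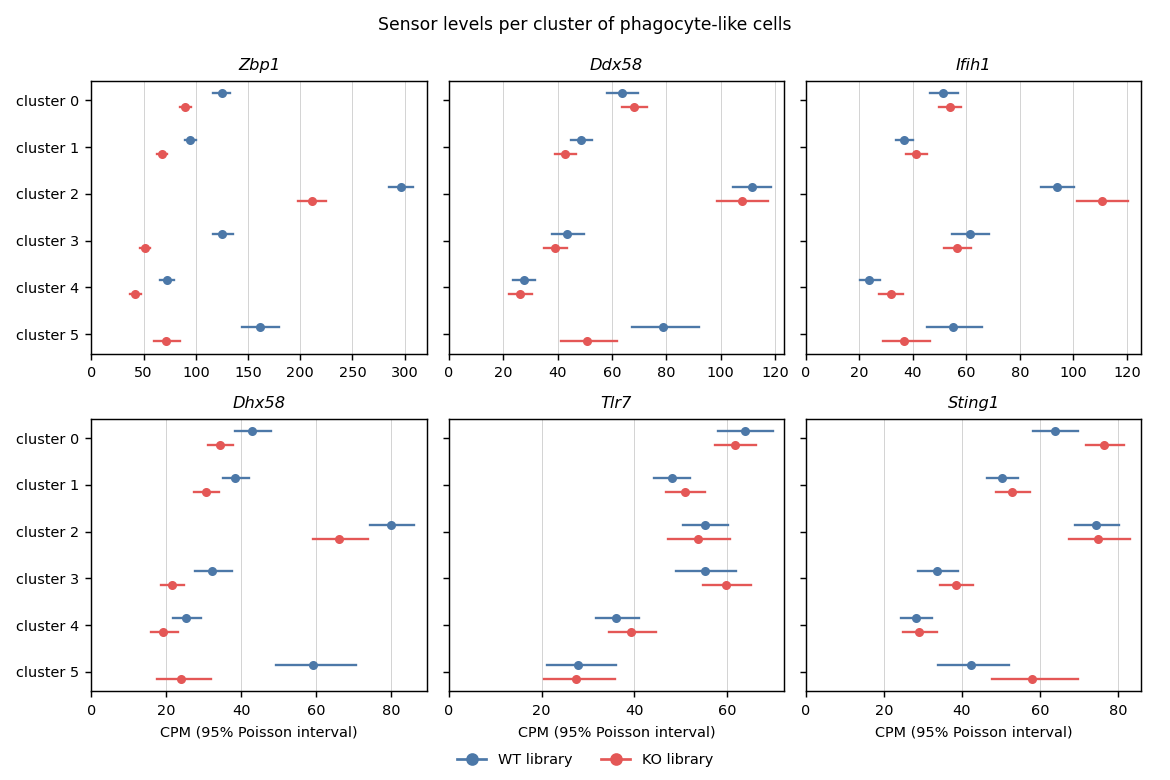
Level of 6 sensors in 6 clusters of phagocyte-like cells. The x axis is CPM from 0, on its own scale in each panel, points are the WT (blue) and KO (red) library, and bars are 95% Poisson intervals; Zbp1 is lower in the KO library in every cluster and highest in cluster 2 (296 and 211 CPM), while Tlr7 overlaps between the libraries in all 6.

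The genes around the sensors were examined as 7 lists, with the median of the log2 difference set beside that of all genes with 20 UMIs. Genes that interferon switches on were the list with the most calls. In myogenic-like cells 21 of 37 measured interferon-stimulated targets were called lower and 1 higher, with a median of -0.62 against 0.03 for all genes, of which 3.00% were called lower and 4.19% higher. Ifit3, an antiviral RNA-binding protein, stood at 35.2 and 8.60 CPM (ratio 0.24 [0.19 to 0.31]) and its relative Ifit3b at 13.02 and 2.46 CPM. The guanylate-binding GTPases Gbp2 and Gbp7 stood at 17.2 and 3.91 CPM and at 41.6 and 11.2 CPM. Ifit3 and Ifit3b are near copies, and reads may be split between them. The same list had 28 of 38 genes called lower in fibro-adipogenic cells, against 2.31% of all genes, with a median of -0.88 against 0.03. In endothelial-like cells it had 21 of 38 called lower, against 0.936% of all genes (medians -0.66 and 0.07). In phagocyte-like cells 19 of 38 were called lower, against 0.545% (-0.58 and 0.03), and in dendritic-like cells 14 of 38, against 1.75% (-0.49 and 0.06). None of the list was called higher in these 4 classes, where 2.42%, 2.52%, 0.616% and 4.24% of all genes were.

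Adaptors, kinases and transcription factors downstream of the sensors were called about as often as all genes in myogenic-like cells, but not in fibro-adipogenic cells. In fibro-adipogenic cells 3 of 30 were called lower, against 2.31% of all genes, and none higher, against 2.42%. In myogenic-like cells 1 of 28 measured genes was called lower, against 3.00% of all genes, and none higher, against 4.19%, with a median of 0.06 against 0.03. The gene called was Irf7, the interferon-induced factor that amplifies type I interferon, at 57.8 and 18.3 CPM (777 and 164 UMIs, ratio 0.32 [0.27 to 0.38]). Ticam1, the adaptor of Tlr3, stood at 6.62 and 3.57 CPM (0.54 [0.35 to 0.82]). Hsp90b1, the chaperone of endosomal receptors, stood at 925 and 1289 CPM (1.39 [1.36 to 1.43]) and the endosomal protease Ctsl at 387 and 500.1 CPM (1.29 [1.24 to 1.35]).

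Other nucleic acid sensors had 3 of 22 measured genes called lower in myogenic-like cells, Ddx60, Ifi204 and Oas2, and none higher (median -0.05), against 3.00% and 4.19% of all genes. Ddx60, a helicase related to the antiviral response, stood at 10.3 and 3.91 CPM (ratio 0.38 [0.25 to 0.55]). Eif2ak2 (PKR), the kinase that halts translation on double-stranded RNA, stood at 33.6 and 20.8 CPM (0.62 [0.52 to 0.74]), just short of the rule. Ifi204, a DNA-binding protein of the interferon-inducible family, stood at 21.7 and 12.3 CPM (0.57 [0.45 to 0.71]), and the oligoadenylate synthetase Oas2 held 61 and 8 UMIs (0.20 [0.08 to 0.41]).

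The interferon and receptor list held no interferon gene with 20 UMIs in myogenic-like cells. Of its 9 measured genes, receptors and signalling factors, 1 was called lower, against 3.00% of all genes, and none higher, against 4.19%. The genes given next were not called. Irf9 and Stat2, which act together in the interferon response, stood at 24.2 and 15.3 CPM (0.63) and at 13.9 and 9.49 CPM (0.68), and the receptor subunit Ifngr1 at 46.3 and 52.4 CPM. Of 14 negative regulators 2 were called lower, against 3.00% of all genes. They were Usp18, which removes Isg15 from proteins, at 17.3 and 5.47 CPM (0.32 [0.23 to 0.43]), and the cytokine signalling inhibitor Socs3 at 218 and 119.7 CPM (0.55). Lgals3bp stood at 24.2 and 15.1 CPM and the deubiquitinase Cyld at 37.8 and 47.8 CPM.

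Nucleases and editing enzymes had 1 of 16 genes called higher and none lower in myogenic-like cells (median 0.05), against 4.19% and 3.00% of all genes, so the share lay near that of all genes. The gene called was the ribonuclease Rnaset2a, at 26.3 and 44.0 CPM. Rnaset2b, its near copy, stood at 29.3 and 43.1 CPM, and reads may be split between them. Samhd1, which lowers the nucleotide pool, stood at 33.3 and 24.9 CPM (ratio 0.75) and the exonuclease Pld4 at 6.55 and 9.49 CPM. Of the 7 genes that act with Zbp1 in cell death, Ripk3, the kinase that Zbp1 engages, was the one called (higher, against 4.19% of all genes), at 5.14 CPM in WT and 10.3 CPM in KO cells (69 and 92 UMIs, ratio 2.001 [1.45 to 2.78]). Casp8 stood at 13.02 and 19.5 CPM (1.501 [1.21 to 1.86]), Fadd at 8.56 and 5.14 CPM (0.60 [0.42 to 0.85]) and Casp6 at 20.1 and 12.96 CPM (0.64 [0.51 to 0.80]).

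**Figure D5:**
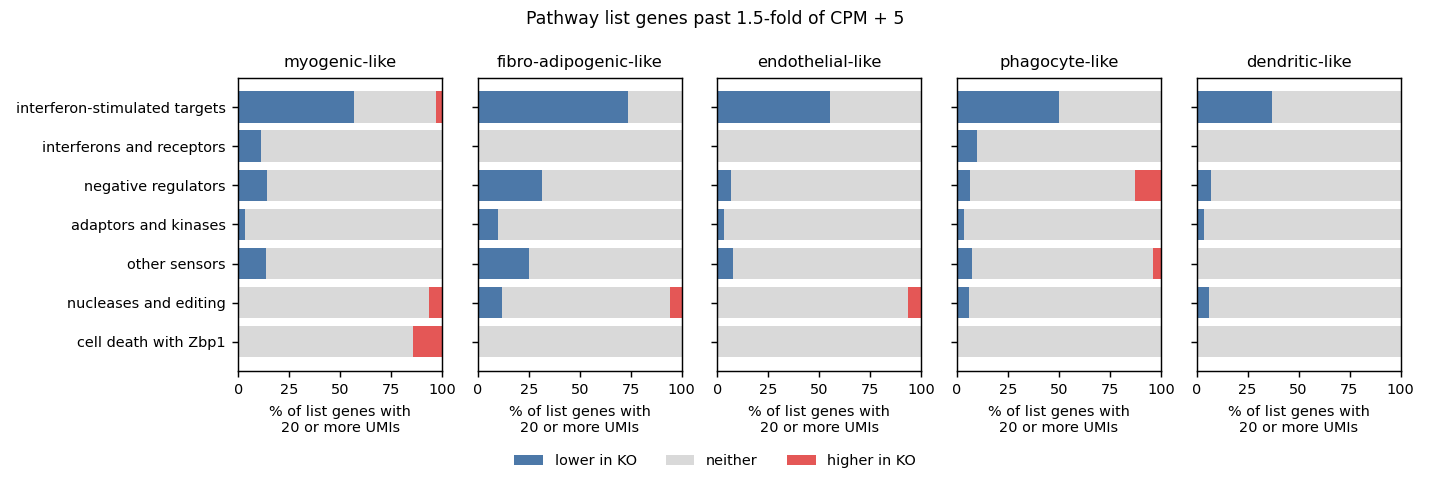
Share of measured genes of 7 pathway lists called lower (blue), called higher (red) or neither (grey) in the KO library in 5 classes. The x axis is the percentage of list genes with at least 20 UMIs; interferon-stimulated targets have the longest blue bar in each class, 21 of 37 genes in myogenic-like cells.

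For each member the genes of most like pattern were found by Pearson's r of log2(CPM + 5) over 16 sums (8 classes in 2 libraries) among 9395 genes. These sums share libraries and depth, and r is given as a description. Ddx58 was most like Rtp4 (r = 0.91), Inka1 (0.90) and Lgals9 (0.90), Ifih1 like Znfx1 (0.94), Tor1aip1 (0.92) and Oasl2 (0.91), and Dhx58 like Oas1a (0.93), H2-M3 (0.92) and Ier5 (0.92). Zbp1 was most like Mx1 (0.87), Ifi213 (0.86) and Oas1a (0.85). The members outside this group had other neighbours. Tlr7 was most like Gm36161, Gpr157 and Cd33 (0.98 to 0.99), Tlr3 like Acer3 (0.90) and Mctp1 (0.89), and Cgas like Grk6 (0.92), Rinl (0.89) and Tapbpl (0.87). Mavs was like Camta2 (0.90) and Mtln (0.90). Sting1 had the lowest values, with Piezo1 (0.79), Skil (0.77) and Smox (0.75).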

How the data were processed

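The deposited files hold raw UMI counts per gene and barcode, 1 matrix per library and unfiltered. Per the submitters' processing notes, STARsolo 2.7.9a, STAR 2.7.8a, Seurat 4.0.1 and GRCm38 were used; the sources used here give no strand setting or annotation, and 55227 of 55487 gene identifiers were found in GENCODE M21. Barcodes were called cells at the 99th percentile of the top 3000 barcodes divided by 10 (5146 WT and 6297 KO UMIs), with at least 300 genes and at most 10% mitochondrial UMIs. Scrublet's own threshold marked 0 doublets, and the cells of highest score were dropped instead, 0.8% for each 1000 cells (356 and 290), a rule chosen after that was seen. Cells were scaled to 10000, log-transformed and clustered (scanpy 1.11.5, Leiden resolution 1, 30 components, 15 neighbours) without 164 member and list genes. Clusters were named from fixed markers by a scoring rule chosen with the data in view.

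UMIs were summed per class and library. CPM have exact Poisson intervals, ratios conditional binomial ones and shares Clopper-Pearson ones, all at 95%. The free-RNA limits come from barcodes with 20 to 100 UMIs. On Poisson counts simulated for 13579 genes of the myogenic-like comparison, 95.8% of the intervals held the true ratio. The intervals assume that same model, so this checks only their computation. UMIs were uneven between cells for some members, which was not simulated and which the intervals do not cover. All members were named, with up to 4 genes per list by the interval bound furthest from 1 in myogenic-like cells, and up to 3 genes of like pattern per member; some genes that these rules name are not reported here. Alternatives covered the UMI minimum, doublets, mitochondrial share, scaling, free RNA, clustering and pseudocount. The members and lists were chosen with earlier results of these data known. A comparison of the helicases' protein sequences was planned and is not analysed here.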

Additional observations from a re-analysis of the deposited data

Results flagged for a closer look

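The KO/WT ratio of Ifih1 lay on opposite sides of 1 in different classes, with intervals that left out 1. It was 1.33 in dendritic-like cells, and 0.55 in fibro-adipogenic, 0.63 in myogenic-like and 0.73 in endothelial-like cells. Sting1 did the same the other way round, with 0.71 in fibro-adipogenic cells against 1.08 in phagocyte-like, 1.16 in endothelial-like, 1.28 in myogenic-like, 1.29 in dendritic-like and 3.07 in mural-like cells, the last on 35 UMIs. With 1 library per group, these differences between classes were not tested across animals.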

How the results depend on the processing

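Of 668 values of single members under 13 alternative settings, 633 stayed within the counting interval of the main value, 34 lay outside it and 1 reversed: the log2 difference of Zbp1 in mural-like cells was 0.042 when 2000 UMIs were the minimum in both libraries. Some values near 1 also changed side and were not counted as reversed. With that minimum, the Mavs ratio in fibro-adipogenic cells went from 0.94 to 1.13. The Ifih1 ratio in phagocyte-like cells went from 1.01 to 0.97. The counts of members past 1.5-fold moved with the pseudocount and with the UMI minimum. All shares of all genes in the text belong to the main settings. Those under the alternatives are not given here, so the counts below cannot be set against a background. With a pseudocount of 1 CPM, 5 members were called lower and 1 higher in myogenic-like cells, 1 higher in fibro-adipogenic and in endothelial-like cells, and 2 lower in tenocyte-like cells, the median of interferon-stimulated targets in myogenic-like cells was -0.87, and 5 list genes were called higher. With 20 CPM, 1 member was lower in fibro-adipogenic and in myogenic-like cells, 0 were lower in dendritic-like and 0 higher in tenocyte-like cells, 1 was higher in mural-like cells, the median was -0.34, and 12 list genes were lower and 0 higher in place of 28 and 3. Keeping genes with 100 UMIs gave a median of -0.73. With a minimum of 2000 UMIs, 2 members were lower and 1 higher in fibro-adipogenic cells, 1 was higher in endothelial-like, 1 lower in myogenic-like, 2 higher in tenocyte-like, 0 lower in mural-like and 1 higher in T or NK lymphocyte-like cells. Dendritic-like cells had 2 members lower with median-of-ratios scaling, the higher UMI minimum, Leiden resolution 2 or all variable genes, and 0 with doublets kept. Tenocyte-like cells had 1 lower with median-of-ratios scaling, free RNA subtracted, the higher minimum or doublets kept, and T or NK lymphocyte-like cells 1 higher with free RNA subtracted or the higher minimum. Weighting KO states to WT shares, chosen after seeing the data, left 0 lower in phagocyte-like cells. Except where the setting itself alters the cells or genes counted, the cause was not tested. No paired analysis was possible because each group is 1 library, so the groups share only 1 replicate number.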

Other observations

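Oasl1, an interferon-induced relative of the oligoadenylate synthetases that restrains Irf7 translation, was the only one of 37 measured interferon-stimulated targets called higher in KO myogenic-like cells. Its level was 7.89 CPM in WT and 16.6 CPM in KO cells (106 and 149 UMIs, ratio 2.11 [1.63 to 2.73]). Its relative Oasl2 stood at 39.3 and 21.2 CPM in the same cells (528 and 190 UMIs, 0.54 [0.46 to 0.64]). In the other 4 larger classes Oasl1 was lower in the KO library, at 69.3 and 47.3 CPM in phagocyte-like, 8.44 and 5.45 CPM in fibro-adipogenic, 38.7 and 16.4 CPM in endothelial-like, and 62.7 and 42.2 CPM in dendritic-like cells. Oasl1 was singled out after its values were seen.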
